A study of Mus musculus with 16 samples.

Results

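Hepatocyte growth factor (HGF), the fibroblast growth factors (FGFs) and their receptors were followed through 10 genes. They are the ligand Hgf and its receptor Met, the ligands Fgf1, Fgf2 and Fgf7, the receptors Fgfr1, Fgfr2, Fgfr3 and Fgfr4, and the receptor-like gene Fgfrl1. Every probe that carries 1 of these names in the scanner files was taken, which gave 18 probes on 45 spots for 10 of the 34836 gene names on the array. Fgf7, Fgfrl1, Hgf and Met have 1 probe each, and the other 6 genes have several, of which the brightest stood for the gene.

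RNA came from satellite cell-derived myoblasts of male C57Bl/6J mice of 11 to 13 weeks, which all groups share, and each sample was read on its own Agilent array in a single color. Dispersed myoblasts had been grown off the fiber in gelatin-coated dishes, and myofiber-associated myoblasts had been cultured on explanted fibers and stripped from them with trypsin before RNA was taken. Each culture was sampled at 48 and 72 hr after isolation with 4 arrays, 16 in all. A dispersed preparation came from 1 mouse and a myofiber-associated preparation from 2 mice, and the 48-hr myofiber-associated replicate 10+11 is a pool of 2 preparations. The labels' source name calls all 16 samples myofibers, so the culture was taken from their growth type. The 8 myofiber-associated arrays shared 1 slide and the 8 dispersed arrays the other. Culture therefore cannot be told apart from slide, whereas both times of a culture were on 1 slide. Columns 1 and 2 of each slide held the 72-hr samples and columns 3 and 4 the 48-hr samples, so that time cannot be told apart from column. Between 55.2% and 60.6% of probes were well above background on the dispersed arrays, and between 57.9% and 64.3% on the myofiber-associated arrays.

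HGF binds the receptor tyrosine kinase MET, and FGFs bind FGF receptors together with heparan sulfate. Both receptor classes signal through docking proteins to the ERK and PI3K cascades, and both pathways are known for the activation and proliferation of satellite cells after muscle injury. FGFs also induce their own feedback genes, such as the Sprouty, Spred, Dusp and Etv families.

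The labelled cell type was checked against marker genes. Of 13 markers of satellite cells and myoblasts, 12 were well above background on all 16 arrays, Pax7, Myf5 and Myod1 among them, and the exception, Calcr, was so on 9 arrays. The list's highest signal was that of Itga7 (mean log2 signal 15.76). The summed signal of the list, on the log2 scale, was 16.66 to 17.10 on the dispersed arrays and 17.29 to 17.88 on the myofiber-associated arrays. The sum follows the brightest genes, and between cultures the genes did not all run with it. At 48 hr 2 of 12 tested genes were higher in myofiber-associated myoblasts (Myog and Des) and 4 lower (Myf5, Vcam1, Pax7 and Pax3). The median log2 difference was -0.53. At 72 hr 5 were higher (Myog, Des, Cxcr4, Sdc3 and Itga7) and 1 lower (Pax3), with a median of 0.48. These counts, and those of the lists below, stand beside 16.1% higher and 27% lower of all genes at 48 hr. At 72 hr the shares of all genes were 11.5% higher and 15.6% lower. Over time 4 of 12 tested genes rose in dispersed myoblasts (Myog, Des, Pax3 and Myf5) and 3 in myofiber-associated myoblasts (Pax7, Cdh15 and Sdc3). Genes of other cell types were also measured in both cultures. The marker genes named in counts were named after their values were seen. Over all genes tested, 7.38% rose and 6.32% fell with time in dispersed and 3.74% and 1.74% in myofiber-associated myoblasts (limma, adjusted p under 0.01).

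Genes of adult muscle fibers set the myofiber-associated arrays apart. Their summed log2 signal was 21.21, 21.00, 21.18 and 20.83 on myofiber-associated 48-hr replicates 7, 8, 9 and 10+11, and 19.30, 20.53, 18.78 and 20.77 on 72-hr replicates 1 to 4. It was 15.96, 15.45, 14.80 and 14.55 on dispersed 48-hr replicates 1 to 4, and 14.02, 13.90, 13.51 and 13.55 on 72-hr replicates 5 to 8. The cultures did not overlap, and within the myofiber-associated 72-hr group replicates 2 and 4 were high and 1 and 3 low. Replicates 1 and 3 were in slide column 1 and replicates 2 and 4 in column 2, so this split cannot be told apart from column. The list's highest mean signal was that of Tnnc2, and 12 of its 13 genes were well above background on every array, the exception being Mylpf. Of the 13 genes, 12 were higher in myofiber-associated than in dispersed myoblasts at 48 hr and 11 at 72 hr. From 48 to 72 hr 6 were lower in dispersed myoblasts and 1, Myh2, in myofiber-associated myoblasts. At an unadjusted p under 0.05 (limma) 10 and 11 were lower, and the median log2 change was -1.44 in dispersed and -1.78 in myofiber-associated myoblasts.

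Endothelial genes ran the other way between cultures. Their summed log2 signal was 17.28, 17.46, 17.55 and 17.73 on dispersed 48-hr replicates 1 to 4, and 15.73, 15.99, 16.24 and 16.05 on 72-hr replicates 5 to 8. It was 15, 15.11, 14.41 and 15.64 on myofiber-associated 48-hr replicates 7, 8, 9 and 10+11, and 13.63, 13.85, 13.48 and 13.66 on 72-hr replicates 1 to 4. Each group lay apart from the others. Of 16 genes, led by Egfl7, 15 were lower in myofiber-associated myoblasts at 48 hr and 15 at 72 hr, and 15 fell from 48 to 72 hr in dispersed and 10 in myofiber-associated myoblasts. All 16 but Erg were well above background on every array.

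The fibroblast list, led by Dcn, had a summed log2 signal of 17.81, 17.89, 17.65 and 17.47 on dispersed 48-hr replicates 1 to 4, and of 17.73, 17.69, 17.41 and 17.06 on 72-hr replicates 5 to 8. On the myofiber-associated arrays it was 17.20, 16.95, 17.20 and 18.07 at 48 hr (replicates 7, 8, 9 and 10+11) and 15.89, 16.25, 16.51 and 16.51 at 72 hr (replicates 1 to 4). The 4 myofiber-associated 72-hr arrays were the lowest. Of its 14 genes 12 were tested, of which 1 fell with time in dispersed myoblasts (Ly6a) and 5 in myofiber-associated myoblasts (Osr1, Col1a1, Cd34, Lum and Dpt). Against dispersed myoblasts, 4 were lower in myofiber-associated myoblasts at 48 hr (Col1a2, Osr1, Thy1 and Ly6a), where 27% of all genes were lower. At 72 hr 9 were lower and 1 higher (Col3a1), beside 15.6% lower and 11.5% higher of all genes.

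The other lists are given by their range of summed log2 signal. Genes of pericytes and smooth muscle, led by Tagln, ranged from 16.36 to 17.70 on the dispersed and from 13.66 to 14.32 on the myofiber-associated arrays. Tagln and Acta2 make up most of that sum on the dispersed arrays and less of it on the others. Of the 11 genes 7 were lower in myofiber-associated myoblasts at 48 hr (median log2 difference -2.04) and 5 at 72 hr (Higd1b, Acta2, Tagln, Myh11 and Cnn1, median of the list -0.97), and none was higher (limma, adjusted p under 0.01; 1 higher at each time at an unadjusted p under 0.05). That 1 was Abcc9, with log2 differences of 0.97 and 1.79 (n = 4, limma adjusted p = 0.0722 and 0.0371). Leukocyte genes, led by Itgam, ranged from 14.09 to 14.49 and from 14.04 to 14.88. Itgam makes up much of that sum, and of the 12 tested leukocyte genes 8 were lower and 1 higher (Cd68) in myofiber-associated myoblasts at 48 hr (median log2 difference -1.77), and 6 were lower and 1 higher (Cd68) at 72 hr (median -1.12). Schwann cell genes, led by Ngfr, ranged from 11.92 to 13.33 and from 10.19 to 12.19, and Erbb3 was well above background on no array. Ngfr makes up much of that sum on the myofiber-associated 72-hr arrays. In that culture its mean log2 signal was 8.57 at 48 hr and 11.14 at 72 hr, whereas the median log2 change of the 7 tested genes was -0.59. Of 7 tested Schwann cell genes 6 fell with time in dispersed myoblasts (median log2 change -0.99), and 6 were lower in myofiber-associated myoblasts at 48 hr (median log2 difference -2.64). In bulk RNA, fewer cells of a type and less RNA per cell cannot be told apart.

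**Figure D1:**
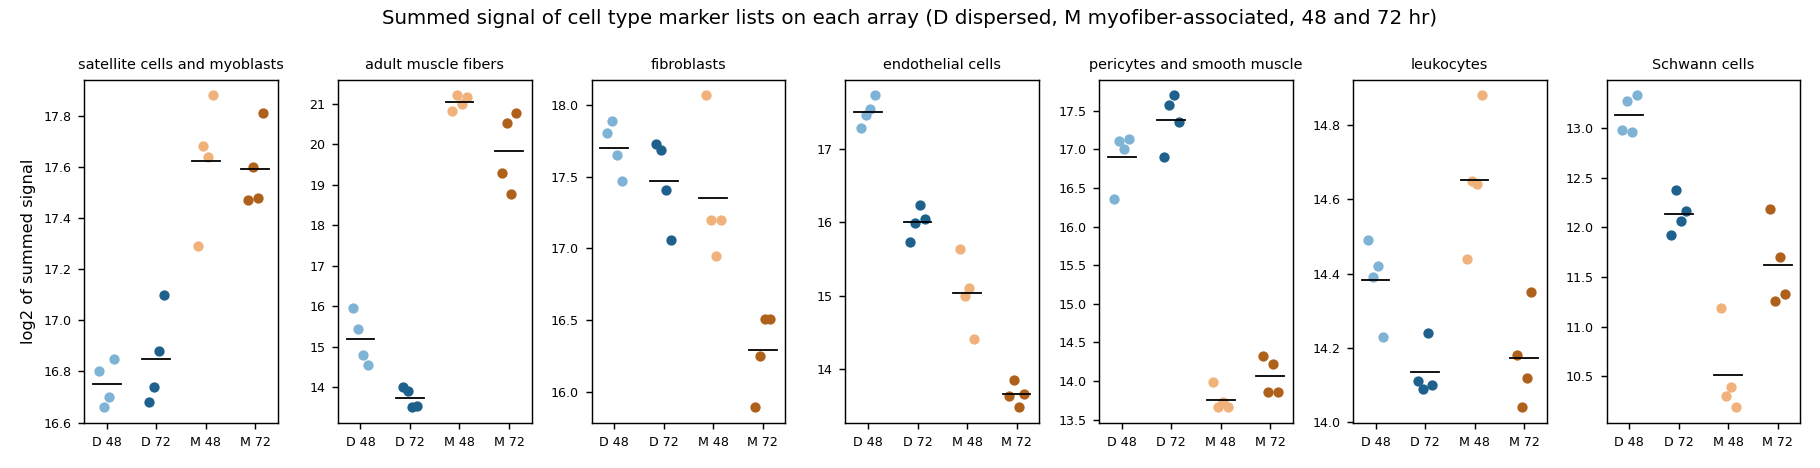
Summed signal of each marker list (log2 scale, vertical axis) on the 16 arrays, in dispersed (D) and myofiber-associated (M) myoblasts at 48 and 72 hr, with 1 point per array and a line at the mean of the group. Adult fiber genes lie between 18.78 and 21.21 on the myofiber-associated arrays and between 13.51 and 15.96 on the dispersed arrays.

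In simulated data more than 1% of the calls were false in dispersed myoblasts and for the difference between the changes. This limits the calls in these comparisons. The comparisons between cultures were not simulated, so that their share of false calls is not known. Over time, few of the 10 genes changed at an adjusted p under 0.01 (limma, two-sided, over 20317 genes). In dispersed myoblasts none was higher at 72 than at 48 hr, against 7.38% of all genes tested, and 1 was lower (Met), against 6.32%. At an unadjusted p under 0.05 (limma), 1 was higher and 2 were lower. In myofiber-associated myoblasts 1 was higher (Fgfr4), against 3.74%, and 1 was lower (Fgf2), against 1.74%. There 2 were higher and 3 lower at an unadjusted p under 0.05 (limma). Counts at an unadjusted p stand without the share of all genes and are given as a description. The comparative ratio of the study sets the 72/48-hr change in dispersed myoblasts against that in myofiber-associated myoblasts. On the log2 scale it was lower for 1 gene (Fgfr4), against 2.36% of all genes, and higher for none, against 1.09% (3 higher and 3 lower at an unadjusted p under 0.05 in limma). The median of the 10 log2 changes was -0.09 in dispersed and 0.04 in myofiber-associated myoblasts, beside 0.02 and 0.06 over all genes.

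Between cultures the calls were more frequent, for the 10 genes and for all genes. At 48 hr 2 genes were higher in myofiber-associated than in dispersed myoblasts (Hgf and Fgfr3), against 16.1% of all genes, and 2 were lower (Fgfr4 and Fgfrl1), against 27%. At 72 hr 3 were higher (Hgf, Fgfr3 and Met), against 11.5%, and 2 were lower (Fgf2 and Fgf7), against 15.6%. The median size of the log2 difference, regardless of sign, was 0.45 for the 10 genes and 0.40 for all genes at 48 hr, and 0.53 and 0.28 at 72 hr. Fgfr1 and Fgfr2 passed the threshold in none of the 5 comparisons, and neither did Fgf1, whose limma adjusted p was 0.0103 and 0.0197 over time, 0.0114 between cultures at 48 hr, 0.0742 for the difference between the changes and 0.477 between cultures at 72 hr.

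**Figure D2:**
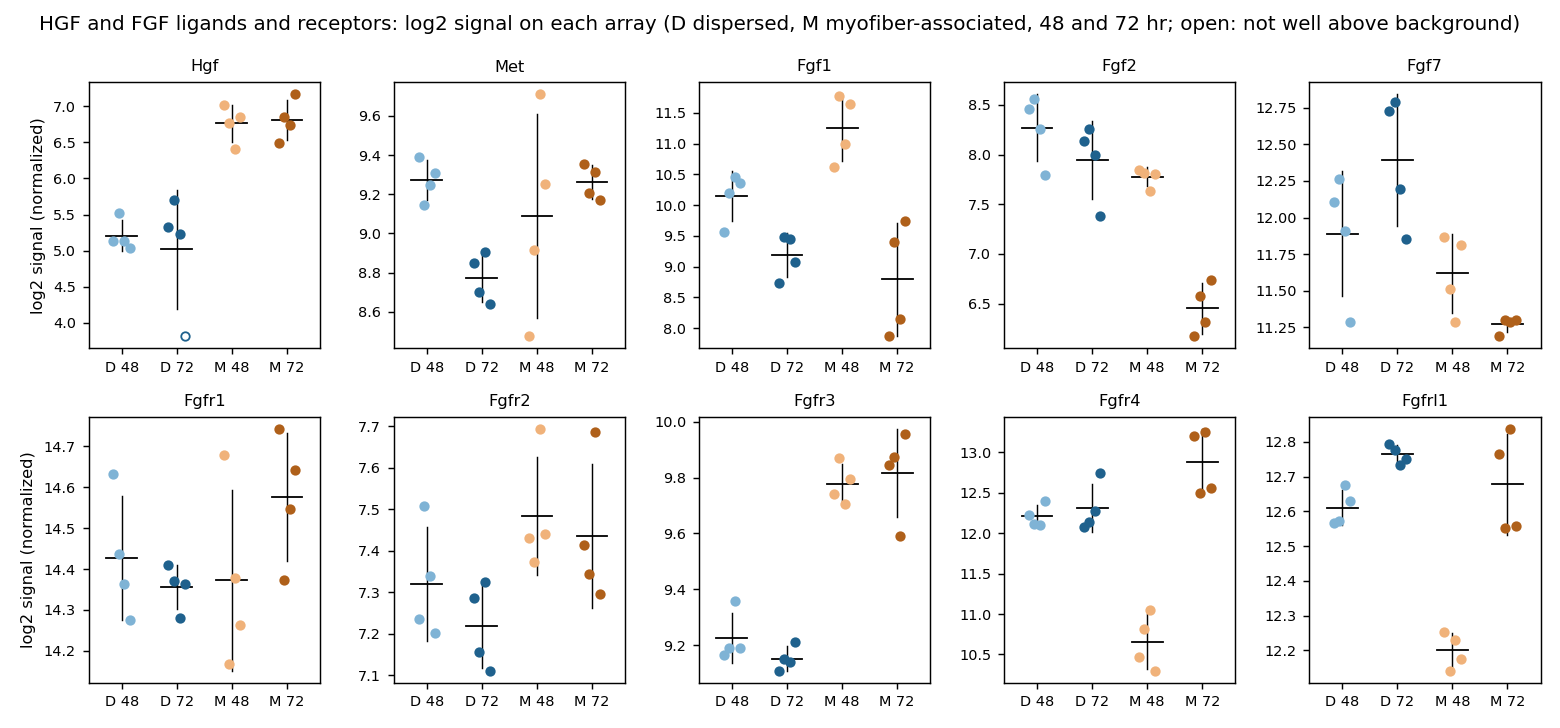
Normalized log2 signal (vertical axis, own scale in each panel) of the probe that stands for each of the 10 genes on the 16 arrays, in dispersed (D) and myofiber-associated (M) myoblasts at 48 and 72 hr. Points are arrays, horizontal lines group means and vertical lines ± 1 SD (n = 4), and the open point in the Hgf panel is the array on which its spot was not well above background. Fgfr4 lies between 10.30 and 11.05 on the myofiber-associated 48-hr arrays and at 12.08 or above on the other 12 arrays.

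Hgf, the ligand of MET, was higher in myofiber-associated myoblasts. Its log2 signal was 6.77, 6.42, 6.85 and 7.02 on myofiber-associated 48-hr replicates 7, 8, 9 and 10+11, and 6.49, 6.85, 6.75 and 7.17 on 72-hr replicates 1 to 4. In dispersed myoblasts it was 5.13, 5.52, 5.14 and 5.04 on 48-hr replicates 1 to 4, and 5.32, 5.70, 5.24 and 3.82 on 72-hr replicates 5 to 8. Every myofiber-associated array lay above every dispersed array. Replicate 8 of the dispersed 72-hr group was low, and it was the only array on which Hgf was not well above background. At 48 hr the difference was 2.94-fold (log2 1.56 ± 0.15 SE, n = 4 arrays per group, limma adjusted p = 8.55e-05). At 72 hr, where replicate 8 enters, the log2 difference was 1.79 ± 0.38 SE (n = 4, limma adjusted p = 0.00629), and without that array it was 1.39 (limma adjusted p = 0.00128). The 72-hr call held in 2 of 8 fits that left out 1 array, those without dispersed replicate 6 or 8. It was lost without any myofiber-associated 72-hr array or without dispersed replicate 5 or 7, with a highest limma adjusted p of 0.018 (log2 1.68) without myofiber-associated replicate 4. Without the filter on low signal the adjusted p was 0.0147. With normexp background correction the log2 differences were 0.79 at 48 hr and 0.88 at 72 hr. The order of the group means was myofiber-associated 72 hr, myofiber-associated 48 hr, dispersed 48 hr and dispersed 72 hr. The times overlapped within each culture, and the log2 change was 0.05 ± 0.18 SE in myofiber-associated and -0.19 ± 0.37 SE in dispersed myoblasts. The genes of adult muscle fibers were higher on the same arrays as Hgf, and the summed signals of endothelial genes and of pericyte and smooth muscle genes were lower. Their part in the Hgf difference was not tested.

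Met, the HGF receptor, is read by 1 probe of 10 spots at chr6:17503299-17503358 (mm9, plus strand), shown because a change over time rests on it: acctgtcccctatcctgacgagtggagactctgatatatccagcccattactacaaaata. The files name a probe's transcript and its position, and hold no exon or UTR annotation. The log2 signal of Met was 9.39, 9.14, 9.25 and 9.31 on dispersed 48-hr replicates 1 to 4, and 8.85, 8.70, 8.91 and 8.64 on 72-hr replicates 5 to 8. On the myofiber-associated arrays it was 8.92, 9.71, 9.25 and 8.48 at 48 hr (replicates 7, 8, 9 and 10+11) and 9.35, 9.21, 9.32 and 9.17 at 72 hr (replicates 1 to 4). The dispersed times did not overlap, and the myofiber-associated 48-hr arrays spread over the range of all other groups (SD 0.52, against 0.09 to 0.13 in the other 3 groups). In dispersed myoblasts Met fell by 0.50 on the log2 scale (1.41-fold, SE 0.0774, n = 4 per time, limma adjusted p = 0.00278). In myofiber-associated myoblasts the log2 change was 0.17 ± 0.24 SE (limma adjusted p = 0.601), and the difference between the changes, -0.67, did not pass (limma adjusted p = 0.0881), although it did in the authors' table (log2 -0.59, limma adjusted p = 0.00195). At 72 hr Met was 1.40-fold higher in myofiber-associated myoblasts (log2 0.49 ± 0.0823 SE, n = 4, limma adjusted p = 0.00226). Both calls were lost without dispersed 72-hr replicate 6 (log2 -0.47, limma adjusted p = 0.0103, and log2 0.46, limma adjusted p = 0.01005). With 1 fit of all 16 arrays, in which the spread of the myofiber-associated 48-hr arrays enters, they were lost as well (limma adjusted p = 0.109 and 0.0424). Neighboring groups in the order of the means overlapped throughout (exact permutation p = 0.314 to 0.857, two-sided), the highest mean being that of dispersed 48 hr and the lowest that of dispersed 72 hr. Of the 16 endothelial genes 15 fell over the same interval in dispersed myoblasts, as did 6 of 7 Schwann cell genes and 6 of 13 adult fiber genes. Their part in the Met change was not tested.

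Fgf1, a ligand that binds all FGF receptors and lacks a classical signal for secretion, had its highest signal in myofiber-associated myoblasts at 48 hr. The values were 11.77, 10.99, 11.64 and 10.62 (log2) on replicates 7, 8, 9 and 10+11, and 7.88, 9.41, 8.14 and 9.74 on 72-hr replicates 1 to 4. In dispersed myoblasts they were 9.56, 10.20, 10.46 and 10.37 on 48-hr replicates 1 to 4, and 8.74, 9.49, 9.45 and 9.07 on 72-hr replicates 5 to 8. Within each culture every 72-hr array lay below every 48-hr array. The size of the log2 change in myofiber-associated myoblasts, -2.47 ± 0.46 SE, was above that of 99% of all genes, but the arrays of the 72-hr group spread widely (SD 0.92) and it did not pass (n = 4 per time, limma adjusted p = 0.0103). It passed without 72-hr replicate 4 (log2 -2.78, limma adjusted p = 0.00666) or without 48-hr replicate 10+11 (log2 -2.68, limma adjusted p = 0.00839). It also passed with normexp correction, scaling to the 75th percentile, 1 fit of all 16 arrays and the authors' table (limma adjusted p = 0.00769, 0.00936, 0.000293 and 0.00613). In dispersed myoblasts the change was -0.96 ± 0.24 SE (n = 4, limma adjusted p = 0.0197), and it passed without 48-hr replicate 1 (log2 -1.15, limma adjusted p = 0.00608), with the mean of its probes (0.00975) and with the authors' table (0.00771). The exact permutation p was 0.0286 for each culture, the smallest that 4 against 4 arrays allow. The changes differed by 1.51 between cultures (limma adjusted p = 0.0742). At 48 hr the difference between cultures was 1.11 (log2, SE 0.29, n = 4, limma adjusted p = 0.0114), and it passed without myofiber-associated replicate 10+11 (log2 1.32, limma adjusted p = 0.00276) and with normexp correction (0.00684). At 72 hr the cultures overlapped. A second probe of Fgf1 was well above background on 2 of 16 arrays, both in the myofiber-associated 48-hr group, and its 48-hr and 72-hr signals overlapped there (exact permutation p = 0.0857). In the myofiber-associated 72-hr group the arrays high in Fgf1, replicates 2 and 4, were also those high in adult fiber genes and those in slide column 2. In the myofiber-associated 48-hr group the arrays had the same order in Fgf1 and in adult fiber genes (replicates 7, 9, 8 and 10+11). Replicates 7 and 9 of that group were in slide column 3. The dispersed groups ran otherwise. Replicate 1 at 48 hr and replicate 5 at 72 hr, each the lowest of its group in Fgf1, were the highest in adult fiber genes. From 48 to 72 hr 15 of 16 endothelial genes fell in dispersed and 10 in myofiber-associated myoblasts. Of 13 adult fiber genes 6 and 1 were lower, with median log2 changes of -1.44 and -1.78. The part of these lists in the Fgf1 values was not tested.

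Fgf2, basic FGF, a mitogen of myoblasts, is read by a probe of 10 spots whose 60 bases lie over chr3:37247934-37295153 (mm9, plus strand), a span of 47220 bases, and so across an intron. It is shown because the fall in myofiber-associated myoblasts rests on it: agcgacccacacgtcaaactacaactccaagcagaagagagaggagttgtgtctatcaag. The log2 signal of Fgf2 was 7.81, 7.64, 7.81 and 7.85 on myofiber-associated 48-hr replicates 7, 8, 9 and 10+11, and 6.17, 6.58, 6.31 and 6.74 on 72-hr replicates 1 to 4. In dispersed myoblasts it was 8.46, 8.56, 8.26 and 7.80 on 48-hr replicates 1 to 4, and 8.14, 8.26, 8.0 and 7.38 on 72-hr replicates 5 to 8. The myofiber-associated 72-hr arrays lay below all 12 others, whose 3 groups overlapped with their neighbors in the order of the means (dispersed 48 hr, dispersed 72 hr, myofiber-associated 48 hr). Fgf2 fell by 1.33 on the log2 scale in myofiber-associated myoblasts (2.51-fold, SE 0.14, n = 4 per time, limma adjusted p = 0.00124). The call held in all 8 fits that left out 1 array. In dispersed myoblasts the log2 change was -0.32 ± 0.23 SE (limma adjusted p = 0.336). The changes differed by 1.0 (SE 0.27, limma adjusted p = 0.028), which passed only without dispersed 72-hr replicate 8 among the 16 fits that left out 1 array (log2 1.19, limma adjusted p = 0.00807), and in the authors' table (log2 0.86, limma adjusted p = 0.0097). At 72 hr Fgf2 was 2.82-fold lower in myofiber-associated myoblasts (log2 -1.49 ± 0.21 SE, n = 4, limma adjusted p = 0.000899), a call that the mean of its probes did not give (log2 -1.0, limma adjusted p = 0.0209). At 48 hr the log2 difference, -0.49, did not pass (limma adjusted p = 0.027), and it did without dispersed replicate 4 (log2 -0.65, limma adjusted p = 0.00215). The second probe of Fgf2 was well above background on 4 of 16 arrays and on none of the myofiber-associated 72-hr arrays. Its signal there overlapped with that of the myofiber-associated 48-hr arrays (exact permutation p = 0.0571) and of the dispersed 72-hr arrays (exact permutation p = 0.286). The myofiber-associated 72-hr arrays were also the lowest in endothelial and in fibroblast genes. Their part in the Fgf2 change was not tested.

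Fgf7, keratinocyte growth factor, a ligand made by mesenchymal cells that binds the epithelial splice form of FGFR2, had log2 signals of 12.73, 12.79, 12.20 and 11.85 on dispersed 72-hr replicates 5 to 8, and of 11.19, 11.30, 11.29 and 11.30 on myofiber-associated 72-hr replicates 1 to 4. At 48 hr they were 12.11, 12.26, 11.91 and 11.28 on dispersed replicates 1 to 4, and 11.51, 11.29, 11.81 and 11.87 on myofiber-associated replicates 7, 8, 9 and 10+11. Only the 72-hr groups were apart from each other. At 72 hr Fgf7 was 2.18-fold lower in myofiber-associated myoblasts (log2 -1.12 ± 0.20 SE, n = 4, limma adjusted p = 0.00296), in all 8 fits that left out 1 array. The log2 changes with time were 0.50 ± 0.27 SE in dispersed and -0.35 ± 0.14 SE in myofiber-associated myoblasts, neither past the threshold (limma adjusted p = 0.217 and 0.0925), nor was the difference between them, 0.85 (limma adjusted p = 0.0782). In the order of the means (dispersed 72 hr, dispersed 48 hr, myofiber-associated 48 hr, myofiber-associated 72 hr) all neighbors overlapped. At 72 hr 9 of 12 fibroblast genes were lower in myofiber-associated myoblasts. Their part in the Fgf7 difference was not tested.

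**Figure D3:**
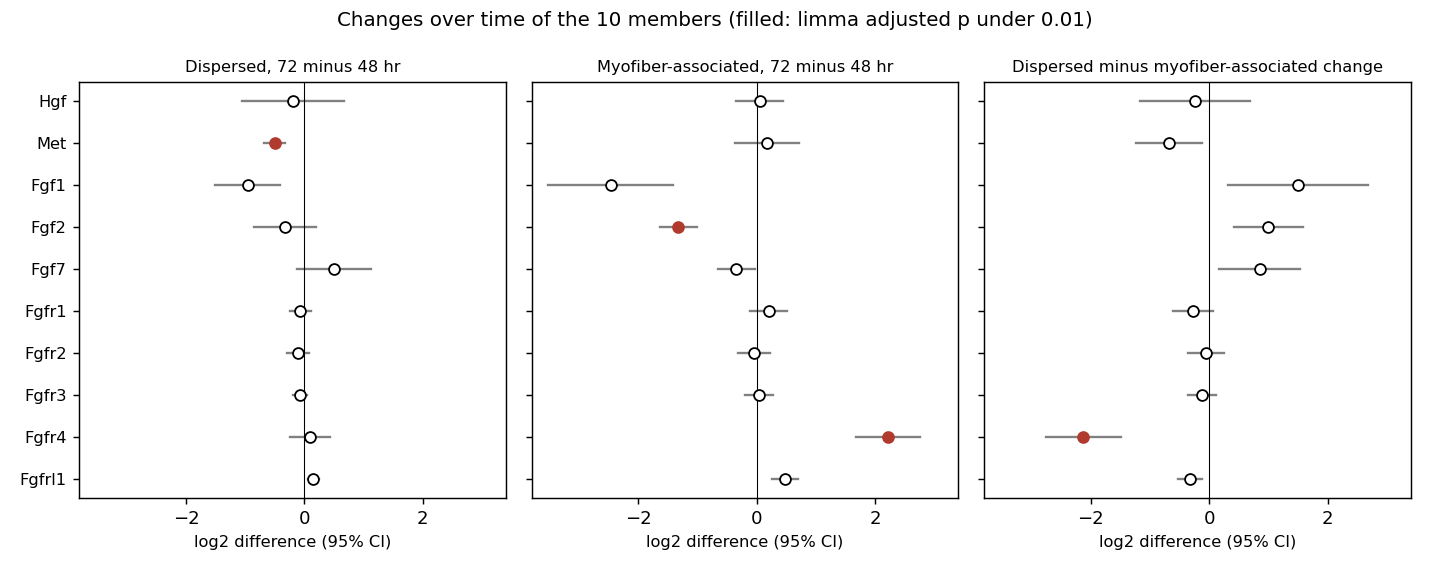
Log2 difference (horizontal axis) of each of the 10 genes from 48 to 72 hr in each culture and between the changes (dispersed minus myofiber-associated), with the 95% confidence interval from limma (n = 4 arrays per group). Filled points have an adjusted p under 0.01: Met (-0.50) in dispersed myoblasts, Fgf2 (-1.33) and Fgfr4 (2.22) in myofiber-associated myoblasts and Fgfr4 (-2.12) between the changes.

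Fgfr4, an FGF receptor expressed in proliferating and differentiating myoblasts, was the only 1 of the 10 genes whose change over time differed between the cultures at the threshold. Its log2 signal was 10.82, 11.05, 10.30 and 10.47 on myofiber-associated 48-hr replicates 7, 8, 9 and 10+11, and 13.21, 12.49, 13.26 and 12.55 on 72-hr replicates 1 to 4. In dispersed myoblasts it was 12.22, 12.11, 12.10 and 12.40 on 48-hr replicates 1 to 4, and 12.08, 12.14, 12.28 and 12.74 on 72-hr replicates 5 to 8. The myofiber-associated 48-hr arrays were low and stood apart, and the neighbors among the other 3 groups overlapped in the order of the means (myofiber-associated 72 hr, dispersed 72 hr, dispersed 48 hr). Fgfr4 rose 4.66-fold in myofiber-associated myoblasts (log2 2.22 ± 0.24 SE, n = 4 per time, limma adjusted p = 0.00141). In dispersed myoblasts the log2 change was 0.10 ± 0.15 SE (95% interval -0.24 to 0.44, limma adjusted p = 0.664). The difference between the changes was -2.12 (SE 0.29, 95% interval -2.75 to -1.49, limma adjusted p = 0.00109), in size above that of 99.1% of all genes. At 48 hr Fgfr4 was 2.93-fold lower in myofiber-associated than in dispersed myoblasts (log2 -1.55 ± 0.17 SE, n = 4, limma adjusted p = 0.000134), and at 72 hr the log2 difference of 0.57 did not pass (limma adjusted p = 0.0687). The rise was called in all 8 fits that left out 1 array (log2 up to 2.35) and the difference between the changes in all 16 (-2.26 to -1.99).

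The second probe of Fgfr4 lies 5′ of the first, at chr13:55269212-55269271 (mm9, plus strand), and is shown because it reads the same rise: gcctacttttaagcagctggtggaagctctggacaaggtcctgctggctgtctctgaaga. On this probe the log2 change of Fgfr4 in myofiber-associated myoblasts was 1.82 ± 0.25 SE (n = 4, adjusted p = 0.00356 over all probes in limma), and the difference between the changes -1.71 ± 0.30 SE (adjusted p = 0.00409). Both probes thus called the rise. Satellite cell and myoblast genes were in part higher with time in the same arrays, 3 of 12 at the threshold, and Pax7 went from a mean log2 signal of 10.21 to 11.89. The myofiber-associated 48-hr arrays, lowest in Fgfr4, were the highest of all in adult fiber genes (summed log2 signal 20.83 to 21.21). The median log2 change of adult fiber genes with time was -1.78 in myofiber-associated myoblasts. It was -1.44 in dispersed myoblasts, where Fgfr4 changed by 0.10. Within the 48-hr myofiber-associated group the arrays differed in their order between Fgfr4 and adult fiber genes. Within the 72-hr group the arrays with the higher Fgfr4, replicates 1 and 3, were those low in adult fiber genes and those in slide column 1. The part of these lists in the Fgfr4 change was not tested.

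Fgfr3, another receptor kinase of the family, was higher in myofiber-associated myoblasts at both times. Its log2 signal was 9.87, 9.70, 9.79 and 9.74 on 48-hr replicates 7, 8, 9 and 10+11, and 9.85, 9.87, 9.59 and 9.96 on 72-hr replicates 1 to 4. In dispersed myoblasts it was 9.16, 9.19, 9.36 and 9.19 on 48-hr replicates 1 to 4, and 9.11, 9.15, 9.14 and 9.21 on 72-hr replicates 5 to 8. The cultures were apart, and the times overlapped within each. The log2 difference was 0.55 ± 0.0757 SE at 48 hr (1.47-fold, n = 4, limma adjusted p = 0.000462) and 0.66 ± 0.0861 SE at 72 hr (1.59-fold, n = 4, limma adjusted p = 0.000668). Both calls held in all 8 fits that left out 1 array. A second probe gave 0.57 at 48 hr (adjusted p = 0.00362 over all probes in limma) and 0.52 at 72 hr, where it did not pass (adjusted p = 0.0381). The third probe was well above background on no array. The mean of the probes, which includes the dim probe, gave 0.31 at 48 hr (limma adjusted p = 0.00501) and 0.36 at 72 hr (limma adjusted p = 0.0167). With time the log2 change was -0.07 ± 0.0540 SE in dispersed and 0.04 ± 0.10 SE in myofiber-associated myoblasts. As for Hgf, the genes of adult muscle fibers were higher in the same culture at both times, and their part was not tested.

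Fgfrl1, a receptor-like gene whose protein binds FGFs and lacks the kinase domain, was lowest in myofiber-associated myoblasts at 48 hr. Its log2 signal there was 12.14, 12.23, 12.18 and 12.25 on replicates 7, 8, 9 and 10+11, and 12.77, 12.55, 12.84 and 12.56 on 72-hr replicates 1 to 4. In dispersed myoblasts it was 12.57, 12.57, 12.68 and 12.63 on 48-hr replicates 1 to 4, and 12.79, 12.78, 12.73 and 12.75 on 72-hr replicates 5 to 8. As for Fgfr4, the myofiber-associated 48-hr arrays stood below the other 12. At 48 hr the gene was 1.33-fold lower in myofiber-associated myoblasts (log2 -0.41 ± 0.0653 SE, n = 4, limma adjusted p = 0.000952), in all 8 fits that left out 1 array. The log2 changes with time, 0.48 ± 0.0961 SE in myofiber-associated and 0.15 ± 0.0409 SE in dispersed myoblasts, did not pass (n = 4, limma adjusted p = 0.0134 and 0.0274; the first passed with normexp correction, 1 fit of all 16 arrays and the authors' table, at 0.00906, 0.00013 and 0.00815), although the times did not overlap in either culture (exact permutation p = 0.0286). The difference between the changes, -0.33, did not pass either (limma adjusted p = 0.0374). In the order of the means (dispersed 72 hr, myofiber-associated 72 hr, dispersed 48 hr, myofiber-associated 48 hr) the first 3 groups overlapped with their neighbors. Genes of adult muscle fibers were high on the arrays on which Fgfrl1 was lowest, and their part was not tested.

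Fgfr1, the FGF receptor with the best-known part in satellite cell proliferation, passed in no comparison, and its 3 probes did not run the same way. On the probe that stands for the gene the 16 log2 values lay between 14.17 and 14.74, and its 4 groups overlapped with their neighbors in the order of the means (exact permutation p = 0.2 to 0.943). In myofiber-associated myoblasts the log2 change of this probe was 0.20 ± 0.13 SE, that of the second probe -0.29 and that of the third probe 0.13. The difference between the changes was -0.27, 0.25 and 0.06 on the 3 probes in turn. In dispersed myoblasts the third probe gave 0.19 with no overlap between times (exact permutation p = 0.0286, n = 4), which did not pass over all probes (adjusted p = 0.0216 in limma), and the others gave -0.07 and -0.04. None of the 15 tests of the 3 probes in 5 comparisons passed.

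Fgfr2, the receptor of Fgf7 in its epithelial splice form, passed in no comparison either. The 16 log2 values lay between 7.11 and 7.69, with overlap between all neighbors in the order of the means (exact permutation p = 0.286 to 0.514). The gene is also read by a probe of 10 spots, and the 2 probes share 42 of their 60 bases. The first was well above background on all 16 arrays and the second on none. On the second probe the dispersed 72-hr arrays, at 2.82 to 3.14, lay above the 12 others, at 2.0 to 2.60, all of them not well above background, so that no fold is given.

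**Figure D4:**
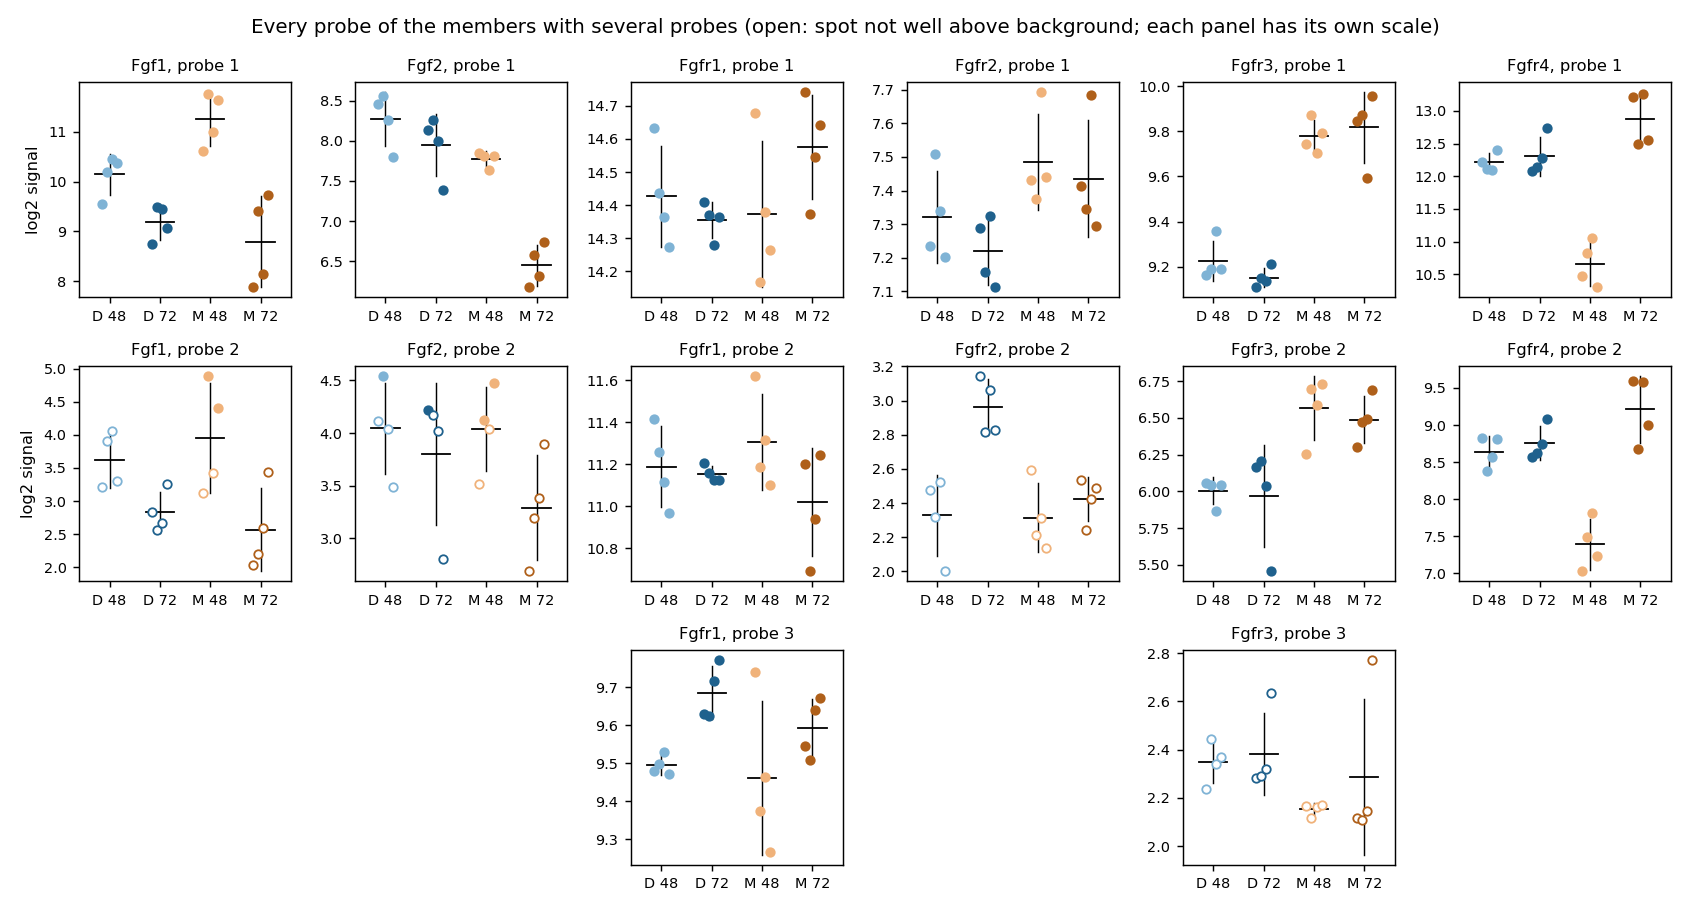
Normalized log2 signal (vertical axis, own scale in each panel) of every probe of the 6 genes with several probes, on the 16 arrays, with group means and ± 1 SD (n = 4). Open points are spots not well above background, and probe 1 stands for the gene. Both probes of Fgfr4 are lowest in the myofiber-associated 48-hr group, whereas the second probe of Fgfr2 and the third of Fgfr3 are not well above background on any array.

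Among themselves the 10 genes followed several courses over the 16 arrays. The following r are Pearson's r over arrays that share slide, culture and time, and are given as a description. Fgfr4 and Fgfrl1 ran together (r = 0.887), as did Hgf and Fgfr3 (r = 0.861). Fgf1 ran against Fgfrl1 (r = -0.868) and Fgfr4 (r = -0.863).

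The genes most like each member were sought among 13240 tested genes, each well above background on all 4 arrays of at least 1 group. For Fgfr4 they were Purb, Gchfr and Shroom2 (r = 0.975, 0.971 and 0.971), and r stayed at 0.849, 0.770 and 0.732 after the group means were subtracted. Fgfrl1 was most like Zfp365, Trp53inp1 and Dpy19l3 (r = 0.984, 0.981 and 0.979, and 0.872, 0.849 and 0.837 within groups). For Fgf2 they were Inhba, Twist1 and Sema3c (r = 0.989, 0.972 and 0.968, and 0.908, 0.863 and 0.917 within groups). For Fgf1 they were Ginm1, Hoxd8 and Ninj1 (r = 0.984, 0.966 and 0.962, and 0.942, 0.906 and 0.845 within groups). Hgf was most like Slc6a12, Zfp36 and Xirp2 (r = 0.915, 0.915 and 0.913), and r was 0.420, 0.519 and 0.451 within groups. Fgfr3 was most like Use1, Gsta2 and Adcy2 (r = 0.975, 0.971 and 0.970, and 0.648, 0.515 and 0.630 within groups). Met was most like Serpina3b, Adam11 and Sdc4 (r = 0.895, 0.873 and 0.841, and 0.865, 0.871 and 0.837 within groups). Fgf7 was most like Rnase4, Ang4 and Prr13 (r = 0.941, 0.941 and 0.928, and 0.877, 0.902 and 0.821 within groups). Fgfr1 was most like Lrp1, Setd1a and Skiv2l (r = 0.862, 0.853 and 0.840, and 0.880, 0.804 and 0.831 within groups), and Fgfr2 like Dlg1, Lcn6 and Ghrh (r = 0.866, 0.858 and 0.857, and 0.785, 0.747 and 0.760 within groups). The genes were chosen by their r over the same arrays, and no r expected by chance was computed.

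Of 19 other FGF genes, which include the intracellular homologous factors Fgf11, Fgf12, Fgf13 and Fgf14, 11 were tested, and none passed in dispersed myoblasts (limma, adjusted p under 0.01; 2 were lower and 0 higher at an unadjusted p under 0.05). In myofiber-associated myoblasts 1 was lower, beside 1.74% of all genes: Fgf18, a ligand of bone and lung development, fell by 1.29 on the log2 scale (SE 0.16, n = 4, limma adjusted p = 0.00275). The call was lost without 48-hr replicate 7 (log2 -1.34, limma adjusted p = 0.0103). Over the same interval 10 of 16 endothelial and 5 of 12 fibroblast genes fell, and their part in the Fgf18 change was not tested. The median log2 change of the list was 0.01 in dispersed and -0.11 in myofiber-associated myoblasts, beside 0.02 and 0.06 over all genes.

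On the list for HGF activation and its inhibitors, which also holds the related ligand Mst1 and its receptor Mst1r, 10 of 15 genes were tested. The results of 1 of them are left out, so no count of calls is given. Plat, tissue plasminogen activator, fell by 1.72 on the log2 scale in dispersed myoblasts (SE 0.14, n = 4, limma adjusted p = 0.000141). In myofiber-associated myoblasts it fell by 1.18 (SE 0.20, n = 4, limma adjusted p = 0.00688). The second call held only without 72-hr replicate 4 or 48-hr replicate 10+11 among 8 fits that left out 1 array, and its highest limma adjusted p was 0.0267, without 72-hr replicate 1. It was also lost without the filter on low signal (limma adjusted p = 0.0177) and with the slide row as a block (0.0136). Endothelial genes fell over the same interval, 15 of 16 in the dispersed culture and 10 in the myofiber-associated culture, as did 6 of 7 Schwann cell genes in the dispersed culture. Their part in the falls of Plat was not tested. The medians of the list were -0.07 and -0.55 in dispersed and myofiber-associated myoblasts.

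FGF co-receptors and heparan sulfate modifiers, of which 18 of 21 were tested, had 5 genes higher and 1 lower in dispersed myoblasts, beside 7.38% and 6.32% of all genes, and none passed in myofiber-associated myoblasts (limma; 6 higher and 1 lower there at an unadjusted p under 0.05). The difference between the changes passed for 1 gene, Nrp1, which was lower, beside 2.36% of all genes lower and 1.09% higher. Sulf2, an enzyme that removes 6-O-sulfate from heparan sulfate outside the cell, rose by a log2 of 0.95 (SE 0.0628, n = 4, limma adjusted p = 6.18e-05). Its relative Sulf1 (log2 0.42) and the adhesion molecule Ncam1 (log2 0.42) passed less firmly, and Hs6st1 (log2 0.41) and Cdh2 (log2 0.38), named after their values were seen, passed as well. In myofiber-associated myoblasts the log2 changes of Sulf2, Ncam1, Cdh2, Sulf1 and Hs6st1 were 1.54, 1.29, 0.94, 0.89 and 0.26, with limma adjusted p of 0.0116, 0.0182, 0.0357, 0.0187 and 0.118. Sulf1 and Ncam1 each held its call in 2 of 8 fits that left out 1 array, Sulf1 without dispersed 48-hr replicate 2 or 72-hr replicate 8 and Ncam1 without 72-hr replicate 5 or 8, with limma adjusted p up to 0.0294 and 0.0218 in the others. Nrp1, a co-receptor of several growth factors, fell by 0.49 on the log2 scale (SE 0.0711, n = 4, limma adjusted p = 0.00203). Its change in myofiber-associated myoblasts was 0.46, and the difference between the changes was -0.95 (limma adjusted p = 0.00899). That difference held its call only without myofiber-associated 72-hr replicate 2, 3 or 4 or 48-hr replicate 10+11 (limma adjusted p up to 0.0221 in the other 12 fits). It was lost as well with scaling to the 75th percentile (0.0106), no filter on low signal (0.018), the filter on probes above background (0.0106) and the slide row as a block (0.0165). With 1 fit of all 16 arrays the calls of Sulf2 (limma adjusted p = 0.0154), Nrp1 (0.0404), Ncam1 (0.285) and Sulf1 (0.122) in dispersed myoblasts were lost. Without the filter on low signal those of Ncam1 (0.0156) and Sulf1 (0.0236) were lost too. The call of Sulf1 was also lost with the mean of all probes, every probe on its own, quantile normalization alone and the filter on probes above background (limma adjusted p up to 0.0265). The part of the endothelial and Schwann cell genes in the fall of Nrp1 was not tested. The medians were 0.08 in dispersed and 0.25 in myofiber-associated myoblasts.

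Of the receptor adaptors and docking proteins 16 of 18 were tested. In dispersed myoblasts 2 rose and 3 fell, beside 7.38% and 6.32% of all genes. Grb14, an adaptor that binds activated receptor kinases, rose 3.04-fold (log2 1.60 ± 0.24 SE, n = 4, limma adjusted p = 0.00225), and the exchange factor Sos1 rose by a log2 of 0.46. Stat3 (-0.60, limma adjusted p = 0.000953), the docking protein Gab1 (-0.57) and the PI3K subunit Pik3r1 (-0.41) fell. Over the same interval 15 of 16 endothelial, 6 of 7 Schwann cell and 6 of 13 adult fiber genes fell. Their part in these 3 falls was not tested. Leaving out 1 array ended the calls of Sos1 (without 48-hr replicate 1 or 4, or 72-hr replicate 5, 6 or 7, limma adjusted p up to 0.0173), Gab1 (without 48-hr replicate 2 or 4, or 72-hr replicate 5 or 7, up to 0.0122) and Pik3r1 (without 48-hr replicate 2 or 4, or 72-hr replicate 6, up to 0.0137). With normexp correction the change of Sos1 was 0.24. One fit of all 16 arrays ended the calls of Stat3 (limma adjusted p = 0.0456), Pik3r1 (0.0807) and Sos1 (0.042), and that of Sos1 was also lost without the filter on low signal (0.0129). In myofiber-associated myoblasts 1 passed, beside 3.74% of all genes higher. It was the phospholipase Plcg1, a direct target of FGF receptors (log2 1.01 ± 0.19 SE, n = 4, limma adjusted p = 0.00986). The difference between the changes, -1.03, also passed for this gene alone (limma adjusted p = 0.00595), beside 2.36% of all genes lower. Like Fgfr4, Plcg1 had its lowest mean in myofiber-associated myoblasts at 48 hr (10.47, against 11.55 and 11.54 in the dispersed groups and 11.49 in the myofiber-associated 72-hr group). Its rise held only without 48-hr replicate 10+11 (limma adjusted p up to 0.0355 in the other 7 fits). It was lost as well without the filter on low signal (0.0235), with quantile normalization alone (0.0102), with the filter on probes above background (0.0117), with the slide row as a block (0.0173) and with the mean of all Plcg1 probes (log2 0.80, limma adjusted p = 0.0233). The difference held only without that array or myofiber-associated 72-hr replicate 2 or 4 (up to 0.0159 in the other 13), and it was lost without the filter on low signal (0.0125) and with the mean of all Plcg1 probes (log2 -0.63, limma adjusted p = 0.0566). The medians were 0.05 and 0.17.

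FGF feedback and target genes, with 16 of 17 tested, had 6 rises and 1 fall in dispersed myoblasts, beside 7.38% and 6.32% of all genes. In myofiber-associated myoblasts they had 2 rises, beside 3.74%. The difference between the changes passed for none, beside 1.09% of all genes higher and 2.36% lower. At an unadjusted p under 0.05 (limma) that difference was higher for 2 and lower for 5. Etv1, an ETS transcription factor induced by FGF, rose in both cultures. The log2 change was 1.15 ± 0.13 SE in dispersed myoblasts (n = 4, limma adjusted p = 0.000652) and 2.12 ± 0.21 SE in myofiber-associated myoblasts (n = 4, limma adjusted p = 0.00111). Its relative Etv4 rose by 0.66 ± 0.0625 SE (n = 4, limma adjusted p = 0.000258) and 1.15 ± 0.13 SE (n = 4, limma adjusted p = 0.00162). In dispersed myoblasts Spred3, an inhibitor of ERK signaling, rose by 0.81 (SE 0.11, n = 4, limma adjusted p = 0.00125), and Il17rd, an FGF inhibitor also called Sef, fell by 0.60 (SE 0.0741, n = 4, limma adjusted p = 0.000946). All 6 calls held in the 8 fits that left out 1 array. With Il17rd, 15 of 16 endothelial, 6 of 7 Schwann cell and 6 of 13 adult fiber genes fell in dispersed myoblasts. Their part in its fall was not tested. With the mean of all probes the dispersed change of Etv1 was 0.76 (limma adjusted p = 0.0104), and with normexp correction that of Spred3 was 0.54. The median log2 change was 0.10 in dispersed and 0.23 in myofiber-associated myoblasts, beside 0.02 and 0.06 over all genes.

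**Figure D5:**
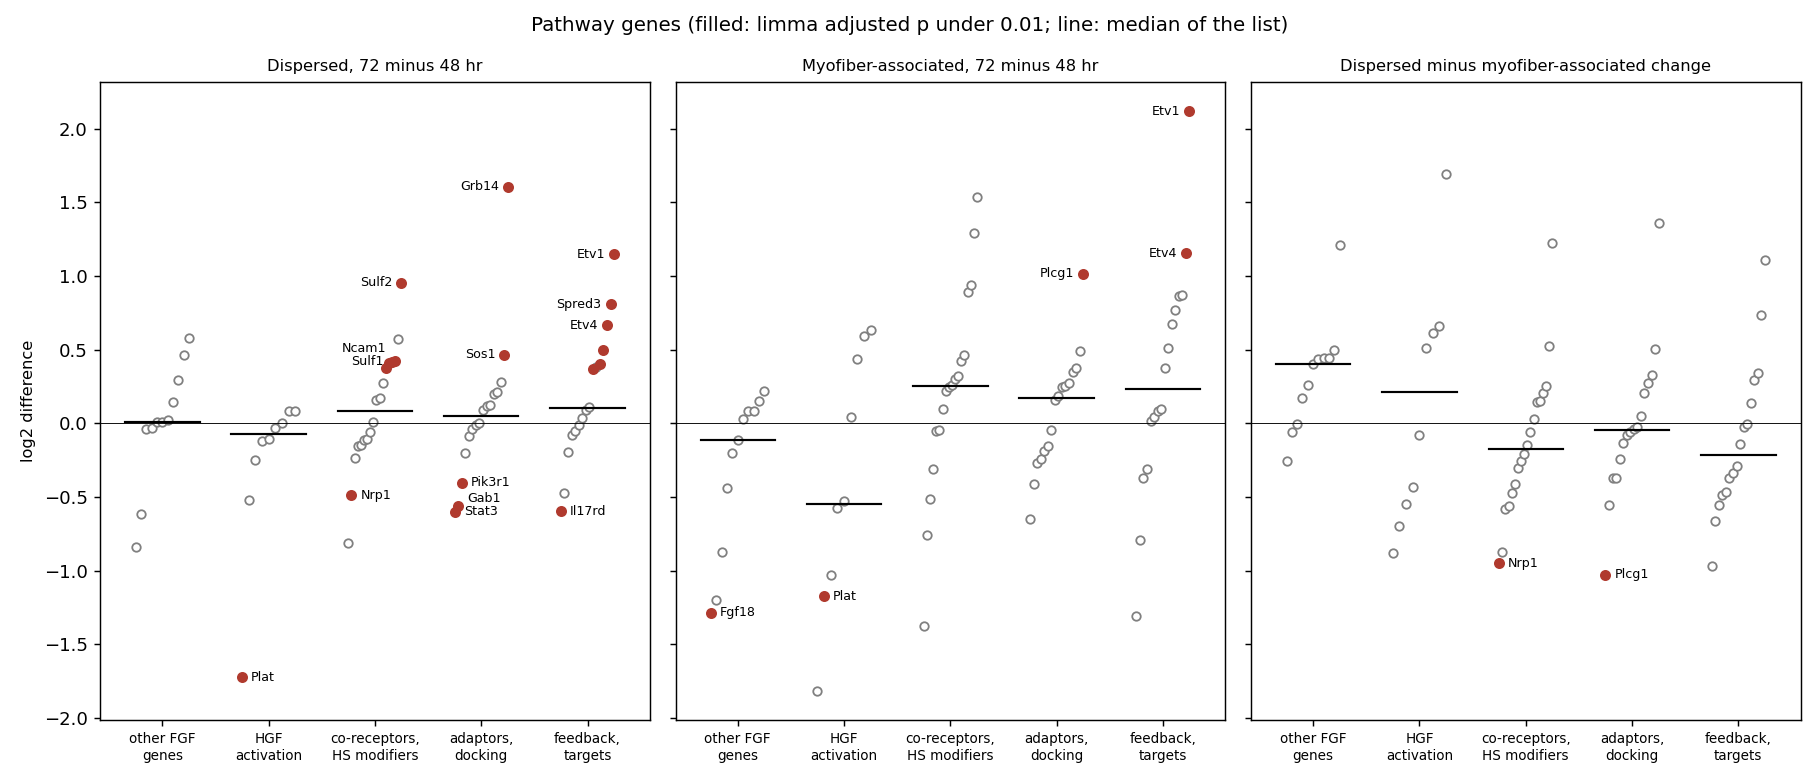
Log2 difference (vertical axis) of the tested genes of 5 pathway lists from 48 to 72 hr in each culture and between the changes (dispersed minus myofiber-associated). Each point is a gene, filled points have a limma adjusted p under 0.01 (n = 4 arrays per group), lines are list medians, and HS stands for heparan sulfate. Of the HGF activation list, 1 gene is not drawn. Etv1 (1.15 and 2.12) and Etv4 (0.66 and 1.15) rose in both cultures.

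Between cultures, pathway genes were more often lower than higher in myofiber-associated myoblasts, as were all genes. The share of pathway genes that was lower lay above that of all genes at both times. The share that was higher lay near that of all genes. Of the 71 genes tested in the 5 lists, 12 were higher and 31 lower at 48 hr (limma, adjusted p under 0.01), and 8 were higher and 21 lower at 72 hr. These counts stand beside 16.1% higher and 27% lower of all genes at 48 hr, and 11.5% and 15.6% at 72 hr.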

How the data were processed

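The 16 arrays were scanned in 1 color. The deposited scanner files give the processed signal of a spot as intensity, from which Agilent's software had subtracted the background per the file headers, beside mean and background intensity and flags (other values of 0 or 1). The authors also deposited log2 ratios in a table, in which the 72-hr arrays are set against the averaged 48-hr arrays of the same culture, loess- and quantile-normalized with limma. Its 8 columns hold 1365 missing values and have medians of -0.0023 to 0.064, and its mean ratios correlate with the changes computed here with r = 0.988 in dispersed and 0.985 in myofiber-associated myoblasts, across genes, which are not independent replicates. The base of its logarithm is not stated there and was taken as 2 from the slopes on the computed log2 changes, 0.918 and 0.934.

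The members and lists were chosen with earlier results of these data known. From the log2 processed signal, outlier spots (139 to 209 per array) were left out; no gene spot was saturated. Each array was loess-normalized to the averaged 48-hr arrays of the same culture (span 0.3, 4 iterations), then all were quantile-normalized. Of 59305 gene spots and 55681 probes, identical probes were averaged and the brightest probe stood for a gene, and a gene needed a median log2 signal of at least 5. Times were compared within a culture, on 8 arrays, their difference between cultures on 16, and cultures within a time on 8, with limma (two-sided, Benjamini-Hochberg over 20317 genes, or over 28197 probes where a probe is tested on its own, threshold 0.01). Single genes were also compared by exact permutation of 4 against 4 arrays (70 assignments, smallest p 0.0286). The limma fit was tested on simulated data that held fewer changed genes than were called in the data. The share of false calls was above the threshold of 0.01 for the change in dispersed myoblasts and for the difference between the changes. It was below the threshold for the change in myofiber-associated myoblasts. The comparisons between cultures were not simulated.

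Named pathway genes are, for each list and comparison over time, at most the 3 largest rises and 3 largest falls past the threshold. By rule, the named marker genes were the 1 of highest mean signal and those at background. Other marker genes were named beyond this rule, those in counts after their values were seen. Of the HGF activation list 1 gene is left out of the text and the plot, though it counts in the list's median and numbers. The genes named as alike are the 3 of highest r, passing over clone names, predicted genes and accessions. Lists were other FGF genes, HGF activation and its inhibitors, FGF co-receptors and heparan sulfate modifiers, receptor adaptors and docking proteins, FGF feedback and target genes, and markers of satellite cells and myoblasts, adult muscle fibers, fibroblasts, endothelial cells, pericytes and smooth muscle, leukocytes and Schwann cells. Of the 18 probes 16 carry a RefSeq transcript, and all 16 matched the same symbol in RefSeq. Other settings tried were quantile normalization alone, scaling by the 75th percentile, normexp correction of the background with an offset of 50, other filters, the mean of all probes, every probe on its own, the slide row as a block, 1 fit of all 16 arrays, a threshold of 0.05, the authors' table and each array left out in turn. Software was R 4.3.3 with limma 3.58.1, jsonlite 2.0.0 and data.table (1.17.8), and Python 3.11.15 with matplotlib 3.10.9, numpy 2.4.6 and pandas 2.3.3. The number of arrays limits the precision.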

Additional observations from a re-analysis of the deposited data

Results flagged for a closer look

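The change of Fgfr4 over time differed between cultures by a test of the difference itself (log2 -2.12, dispersed minus myofiber-associated, limma adjusted p = 0.00109). Of 72 groups of 4 values (18 probes in 4 groups), 7 held an array far from the others, its gap to the nearest divided by the range of the group being above Dixon's 95% critical value. Chance alone gives about 1 in 20 groups. On probes well above background these were Fgf7 in myofiber-associated myoblasts at 72 hr (lowest, replicate 1, 0.857), and in dispersed myoblasts at 48 hr the first probe of Fgfr3 (highest, replicate 3, 0.865) and its second probe (lowest, replicate 3, 0.909), on which the same array thus lay on opposite sides. On dim probes they were the second probe of Fgf2 in dispersed myoblasts at 72 hr (lowest, replicate 8, 0.859) and the third probe of Fgfr3 in 3 groups: myofiber-associated 72 hr (highest, replicate 4, 0.943), myofiber-associated 48 hr (lowest, replicate 7, 0.861) and dispersed 72 hr (highest, replicate 8, 0.9).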

How the results depend on the processing

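No paired analysis was possible because the replicate numbers do not link the arrays of the groups compared. No called log2 value of the 10 members changed sign under any alternative run. The number of members past the threshold in dispersed myoblasts over time (1) was 2 with the mean of all probes, 0 with 1 fit of all 16 arrays, 3 at an adjusted p of 0.05, 2 with the authors' table and 0 to 2 when 1 array was left out. In myofiber-associated myoblasts (2) it was 4 with normexp, 1 fit of all arrays, an adjusted p of 0.05 or the authors' table, 3 with scaling to the 75th percentile, and 2 to 3 when 1 array was left out. For the difference between the changes (1) it was 3 at 0.05 or with the authors' table and 1 to 2 when 1 array was left out. Between cultures it stayed at 4 or 5 when 1 array was left out at 48 hr (4) and at 72 hr (5), and it was 5 with normexp and 6 at 0.05 at 48 hr. At 72 hr it was 4 without the filter on low signal or with 1 fit of all arrays, and the mean of all probes gave 3, with 9 members tested since Fgfr2 falls below the filter. The authors' table holds ratios to a mean and so leaves out the spread of the 48-hr arrays, and 1 fit of all arrays pools the spread of both cultures, whose median gene SD was 0.0949 and 0.102 in dispersed and 0.216 and 0.180 in myofiber-associated myoblasts at 48 and 72 hr. Otherwise the cause was not tested. The rise of Fgfr4 and the fall of Fgf2 in myofiber-associated myoblasts were called in all 18 alternatives (log2 2.02 to 2.35 and -1.42 to -0.92), and the difference of Fgfr4 in all 26 (-2.26 to -1.91). Signal over background limits the second probes of Fgf1, Fgf2 and Fgfr2 and the third of Fgfr3.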

Other observations

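Myog, a marker of differentiating myoblasts on the satellite cell and myoblast list, averaged 6.05 (log2 signal) on the 48-hr and 9.96 on the 72-hr arrays of dispersed myoblasts. It averaged 14.30 and 13.66 on those of myofiber-associated myoblasts. The summed log2 signal of adult fiber genes was also higher on the myofiber-associated arrays (18.78 to 21.21, against 13.51 to 15.96). The part of adult fiber genes in the Myog difference was not tested. Calcr, a marker of quiescent satellite cells, was well above background on all 4 arrays of each culture at 48 hr, on none of the dispersed and on 1 of the myofiber-associated arrays at 72 hr. Both genes were chosen after their values were seen.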
